A study of Mus musculus with 32 samples.

Results

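The genes described here are 10 transcription factors of urothelial differentiation: Pparg (ENSMUSG00000000440_at), Gata3 (ENSMUSG00000015619_at), Foxa1 (ENSMUSG00000035451_at), Grhl3 (ENSMUSG00000037188_at), Elf3 (ENSMUSG00000003051_at), Klf5 (ENSMUSG00000005148_at), Trp63 (ENSMUSG00000022510_at), Grhl2 (ENSMUSG00000022286_at), Ovol1 (ENSMUSG00000024922_at) and Ehf (ENSMUSG00000012350_at). They were chosen by name, with earlier results of these data known. Each is read by 1 probe set that carries its Ensembl mouse gene identifier, and all 10 were present among the 21237 probe sets of the arrays. One source of RNA was normal bladder lining (urothelium) removed from 9 mice, and the other was cultured BC57 cells, a bladder cancer line of the mouse grown in DMEM with fetal bovine serum. Each source was split into a fresh frozen (FF) part and a paraffin-embedded part fixed for 24 h in formalin (FFPE), and FFPE RNA was taken from 10 sections of 5 µm. FF RNA was amplified with the WT Plus kit at 100 ng, the reference of the series, or with the WT Pico kit at 2 ng or 0.5 ng, and FFPE RNA with the SensationPlus kit at 50 ng or with WT Pico at 2 ng or 0.5 ng. The 32 arrays form 12 groups, with 2 arrays in each WT Plus and SensationPlus group and 3 in each WT Pico group. The sources used here do not give the strain, age or sex of the mice, any engineered allele, the clonal origin of BC57 or whether the 9 mice were pooled.

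The urothelium is layered, with basal cells, intermediate cells and superficial umbrella cells that carry the urine barrier. PPARγ, encoded by Pparg, is a nuclear receptor that pairs with RXR and is activated by fatty-acid-like ligands. In human bladder cancer cells it acts together with GATA3 and FOXA1 to drive a luminal programme. In mice, Grhl3 is needed for terminal differentiation of umbrella cells, Klf5 for maturation of the bladder urothelium, and Trp63, which encodes p63, for the formation of stratified epithelia. Loss of GATA3, FOXA1 and PPARγ is a known feature of basal-type human bladder cancers, in which p63 is usually kept.

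RefSeq promoter windows on GRCm38.p6 were at hand for Pparg, Gata3, Foxa1, Grhl3 and Elf3. The windows of Gata3, Grhl3 and Foxa1 and a pair of the 3 windows of Pparg are shown, because these 4 genes were among the factors lower in BC57 than in urothelium in every FF comparison below. Each is the 250 bases before the annotated start, on the strand of the gene, 5′ to 3′, and capitals mark matches to 1 of the 6 motifs described after them.
Gata3, chr2:9878601-9878850, minus strand: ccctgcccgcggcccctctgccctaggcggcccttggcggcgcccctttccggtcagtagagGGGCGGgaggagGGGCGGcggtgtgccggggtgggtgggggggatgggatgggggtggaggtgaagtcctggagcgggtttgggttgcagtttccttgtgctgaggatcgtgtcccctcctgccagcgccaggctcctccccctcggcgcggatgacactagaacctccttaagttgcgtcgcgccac
Grhl3, chr4:135573633-135573882, minus strand: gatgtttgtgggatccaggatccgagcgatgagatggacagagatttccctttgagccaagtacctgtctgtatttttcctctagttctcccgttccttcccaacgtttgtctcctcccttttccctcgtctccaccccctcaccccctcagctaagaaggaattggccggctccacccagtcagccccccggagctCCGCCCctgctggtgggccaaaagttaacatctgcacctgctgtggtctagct
Foxa1, chr12:57546112-57546361, minus strand: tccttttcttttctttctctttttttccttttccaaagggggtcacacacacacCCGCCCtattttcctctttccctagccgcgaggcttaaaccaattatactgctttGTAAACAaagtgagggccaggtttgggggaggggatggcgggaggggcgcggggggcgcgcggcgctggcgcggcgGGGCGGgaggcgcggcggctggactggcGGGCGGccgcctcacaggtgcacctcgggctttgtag
Pparg, first window, chr6:115360894-115361143, plus strand: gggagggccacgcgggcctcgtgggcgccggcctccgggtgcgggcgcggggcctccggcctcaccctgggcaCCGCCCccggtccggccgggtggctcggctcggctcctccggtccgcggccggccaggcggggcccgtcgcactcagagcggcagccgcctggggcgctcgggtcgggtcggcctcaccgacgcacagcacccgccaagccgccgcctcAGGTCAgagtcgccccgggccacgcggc
Pparg, second window, chr6:115362099-115362348, plus strand: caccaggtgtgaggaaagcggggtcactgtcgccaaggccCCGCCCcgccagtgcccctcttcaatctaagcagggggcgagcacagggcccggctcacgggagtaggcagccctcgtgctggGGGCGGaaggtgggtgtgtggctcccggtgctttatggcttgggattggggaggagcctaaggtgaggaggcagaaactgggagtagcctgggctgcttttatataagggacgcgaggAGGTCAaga

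Motifs were searched on both strands of the 7 windows of these genes and of 32851 mouse windows of the same length. The GC box bound by KLF and SP proteins, searched as GGGCGG, lay in 5 of the 7 windows and in 32.7% of all. The half-site of nuclear receptors, searched as AGGTCA, lay in 2 of the 7, both of Pparg itself, and in 14% of all windows. A forkhead motif, searched as GTAAACA, lay in 1 of the 7, that of Foxa1, from -141 to -135 counted back from the start, and in 3.2% of all windows. The GATA motif was searched as AGATAA and lay in 0 of the 7 windows and in 10.0% of all. The grainyhead motif was searched as ACCGGTT and lay in 0 of the 7 windows and in 0.8% of all. The ETS motif was searched as AGGAAGT and lay in 0 of the 7 windows and in 7.7% of all. No matches of different motifs overlap in these windows. The window of Elf3 and the third window of Pparg held no match and are not shown.

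All values are log2 RMA values as deposited, a difference of 1 is a factor of 2, and levels of different genes were not set against each other because probe sets differ in brightness. A change was called when the adjusted p from limma was under 0.05 and the log2 change was at least 1 in size. The replicates are repeat amplifications of the same 4 kinds of RNA as far as the labels tell, so p-values measure only the spread between these arrays, which may be technical. In bulk RNA, fewer cells of a type and less RNA per cell cannot be told apart. Array medians ran from 5.28 to 5.80, and the SD over probe sets was 1.89 to 2.00 on FF arrays, 1.73 to 1.87 on FFPE arrays with SensationPlus and 1.37 to 1.64 on FFPE arrays with WT Pico. Other markers of urothelial, stromal or immune cells could not be matched to the probe sets by name, so the makeup of the urothelium samples was not tested beyond the factors given here.

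A group of 5 factors separated the sources whatever the preservation, kit or input. For Pparg, Gata3, Grhl3, Trp63 and Ehf, every one of the 16 urothelium arrays lay above every one of the 16 BC57 arrays, and 4.47% of all probe sets did so. Trp63 ran from 6.54 to 9.32 in urothelium and from 4.57 to 5.19 in BC57. Gata3 ran from 8.72 to 10.68 and from 6.16 to 7.28, and Grhl3 from 6.83 to 9.90 and from 5.74 to 6.16. Pparg ran from 6.51 to 9.09 in urothelium and from 5.37 to 6.36 in BC57, and Ehf from 7.28 to 9.04 and from 6.15 to 6.78. The ranges of Foxa1, Elf3, Klf5, Grhl2 and Ovol1 over all arrays overlapped. Within each of the 6 conditions, however, every urothelium array of Foxa1 lay above every BC57 array, by gaps from 0.33 to 2.49.

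**Figure D1:**
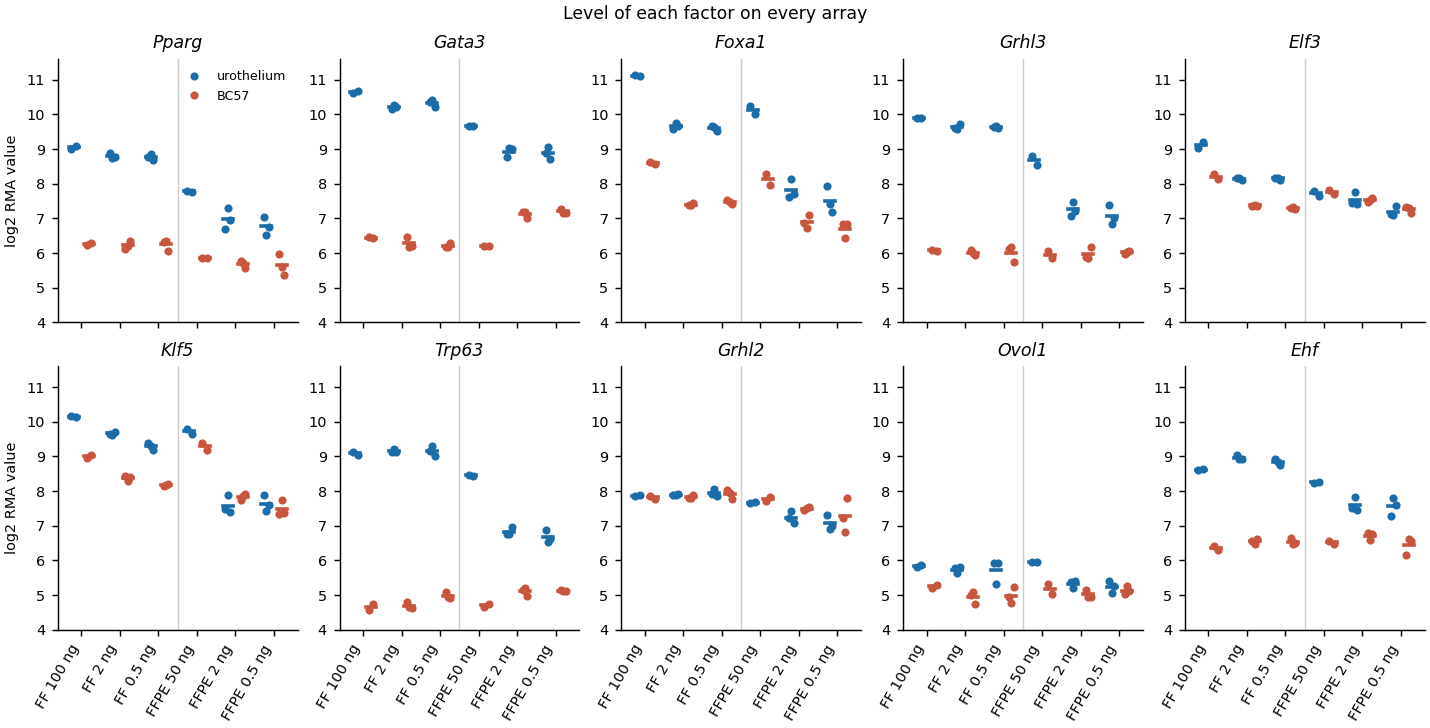
Log2 RMA value (vertical axis) of each factor on every array, by condition (horizontal axis), urothelium in blue and BC57 in red; points are arrays and short lines are group means. Blue lies above red in every condition for Pparg, Gata3, Foxa1, Grhl3, Trp63 and Ehf. In FFPE RNA the ranges of the colours overlap at 50 ng, 2 ng and 0.5 ng for Elf3, at 2 ng and 0.5 ng for Klf5 and at 0.5 ng for Ovol1. For Grhl2 they overlap in FF RNA at 100 ng and 0.5 ng and in FFPE RNA at 0.5 ng.

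In the reference comparison, FF RNA at 100 ng, 7 of the 10 factors fell in BC57 and 0 rose, where 7.36% of all probe sets were called lower and 8.06% higher. The median change of the 10 was -2.40, beside 0.07 for all probe sets. Nuclear receptor Pparg read 9.01 and 9.09 in urothelium and 6.24 and 6.28 in BC57, a change of -2.79 ± 0.06 (SE, n = 2 per group; adjusted p = 6.08e-07). The zinc finger factor Gata3 read 10.61 and 10.68 against 6.45 and 6.43, and the pioneer factor Foxa1 11.14 and 11.11 against 8.62 and 8.56. For both, the arrays of each source lay within 0.1 of each other and far from the other source: Gata3 fell by 4.20 ± 0.06 (18.4-fold, adjusted p = 2.18e-07) and Foxa1 fell by 2.54 ± 0.06 (5.80-fold, adjusted p = 8.13e-07).

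The largest fall among the 10 was that of Trp63, the p53 relative that marks basal cells. It read 9.14 and 9.05 in urothelium and 4.57 and 4.75 in BC57, a 21.6-fold difference (log2 -4.43 ± 0.08, adjusted p = 3.85e-07). The BC57 values stood at the 37.8th percentile of their arrays on average, below the middle of all probe sets. Detection calls were not used here, so such low values are not shown to be absence of RNA, and for Trp63 the size of the fold also depends on background.

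The paired families of related factors split. Grhl3, the grainyhead factor of umbrella cell differentiation, read 9.89 and 9.90 in urothelium and 6.10 and 6.06 in BC57 and fell by 3.82 ± 0.06 (adjusted p = 2.50e-07). Grhl2, a grainyhead factor that maintains epithelial junction genes, read 7.85 and 7.88 against 7.87 and 7.77. The Grhl2 arrays overlapped, and the difference of -0.04 had a 95% interval from -0.20 to 0.12 (adjusted p = 0.621); it was 0.02 after centring each array on its median and -0.18 after quantile normalization over all arrays (adjusted p = 0.0259). Among the ETS factors, Ehf read 8.60 and 8.63 against 6.41 and 6.30 and fell by 2.26 ± 0.07 (adjusted p = 1.48e-06). Elf3, an ETS factor induced by PPARγ in human urothelial cells, read 9.03 and 9.19 against 8.27 and 8.13; its change of -0.91 ± 0.08 had an adjusted p of 0.000179 and stayed under the fold threshold.

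Klf5, a Krüppel-like zinc finger factor, read 10.16 and 10.13 in urothelium and 8.97 and 9.05 in BC57, a change of -1.14 ± 0.06 (adjusted p = 1.99e-05). Ovol1, a zinc finger repressor active in epithelial differentiation, was low on both sides, with 5.82 and 5.87 against 5.21 and 5.28, a change of -0.60 ± 0.07 (adjusted p = 0.000449) that was not called. So 9 of 10 passed the adjusted p in the direction of urothelium, and Grhl2 did not. The share of all probe sets past the adjusted p alone was not counted. After quantile normalization Grhl2 passed the adjusted p too, here and in FF RNA at 2 ng (-0.15, adjusted p = 0.013) and 0.5 ng (-0.19, adjusted p = 0.0402). These sizes were far under the fold threshold.

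The same 7 factors were called lower in BC57 with WT Pico from FF RNA, at 2 ng (7.34% of all probe sets called lower) and at 0.5 ng (6.88%). At 2 ng, Trp63 read 9.14, 9.22 and 9.14 in urothelium and 4.79, 4.66 and 4.62 in BC57, a change of -4.48 ± 0.07 (adjusted p = 2.03e-11). At 0.5 ng it read 9.17, 9.32 and 9.01 against 5.08, 4.95 and 4.91, a change of -4.18 ± 0.11 (adjusted p = 2.90e-10). At 2 ng and 0.5 ng, Gata3 changed by -3.93 and -4.11, Grhl3 by -3.63 and -3.64, Pparg by -2.58 and -2.52, Foxa1 by -2.27 and -2.15, Ehf by -2.42 and -2.30 and Klf5 by -1.28 and -1.12. The difference of each factor's change from the reference was tested directly: 0 of 10 were called at 2 ng and 0 at 0.5 ng, where 0.758% and 0.650% of all probe sets were. At an unadjusted p under 0.05, which was not counted over all probe sets, 2 and 1 of the 10 passed. The largest of these differences was that of Foxa1, 0.27 (95% interval 0.09 to 0.45, adjusted p = 0.0879) and 0.39 (0.17 to 0.61, adjusted p = 0.0912). After quantile normalization the Foxa1 differences were 0.42 and 0.44 and passed the adjusted p (0.00837 and 0.0145), still under the fold threshold.

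In FFPE RNA the changes of the 7 factors called in the reference lay nearer to 0 at each of the 3 inputs. With SensationPlus at 50 ng, 6 of 10 fell in BC57 (6.48% of all probe sets called lower), the reference 7 without Klf5. Gata3 read 9.65 and 9.66 in urothelium and 6.21 and 6.20 in BC57, a change of -3.45 ± 0.08 (adjusted p = 4.54e-06). Trp63 fell by 3.76 ± 0.09, Grhl3 fell by 2.73 ± 0.13, Foxa1 fell by 2.01 ± 0.14, Pparg fell by 1.93 ± 0.08 and Ehf fell by 1.73 ± 0.09. Klf5 read 9.80 and 9.65 against 9.40 and 9.19, a change of -0.43 (adjusted p = 0.0252). Elf3 overlapped, with 7.79 and 7.66 in urothelium and 7.81 and 7.70 in BC57 (0.03, 95% interval -0.21 to 0.26), and the sign turned after quantile normalization (-0.28, adjusted p = 0.0275). Ovol1 changed by -0.77 (adjusted p = 0.00331), beside -0.60 in the reference, a difference of -0.18 (adjusted p = 0.474).

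With WT Pico from FFPE RNA, 4 of 10 fell in BC57 at 2 ng (2.42% of all probe sets called lower) and 5 at 0.5 ng (1.45%). At 2 ng, Gata3 read 8.77, 9.02 and 8.99 in urothelium and 7.18, 7.19 and 7.01 in BC57, a change of -1.80 ± 0.11 (adjusted p = 1.08e-05). Trp63 read 6.76, 6.76 and 6.96 against 5.15, 5.19 and 4.98, a change of -1.72 ± 0.10 (adjusted p = 1.11e-05). Both kept every urothelium array more than 1.5 above every BC57 array. Pparg fell by 1.30 ± 0.15 and Grhl3 fell by 1.29 ± 0.13. Foxa1, with 7.61, 8.14 and 7.71 against 6.87, 6.73 and 7.09, changed by -0.92 ± 0.16, and Ehf changed by -0.89 ± 0.12; neither reached the fold threshold, which both passed after quantile normalization (-1.48 and -1.43).

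At 0.5 ng the called factors were Gata3 (-1.69 ± 0.12, adjusted p = 0.000224), Trp63 (-1.56 ± 0.11, adjusted p = 0.000227), Pparg (-1.12 ± 0.19), Ehf (-1.12 ± 0.18) and Grhl3 (-1.05 ± 0.15; -0.99 after centring each array). Foxa1 changed by -0.80 ± 0.21, and by -1.27 after quantile normalization, which put it past the fold. The count of called factors ran from 3 to 5 when single arrays were left out: without urothelium array 1, Pparg (-0.99) and Grhl3 (-0.90) were under the fold threshold, without BC57 array 3 Pparg was (-0.99), and without BC57 array 1 Ehf was (-0.98). Elf3 at 2 ng and 0.5 ng changed by -0.01 and 0.07, Klf5 by 0.26 and -0.15 and Grhl2 by 0.26 and 0.21, and the arrays of Elf3 and Klf5 overlapped at both inputs. After quantile normalization Elf3 at 2 ng was -0.42 (adjusted p = 0.0334) and Klf5 at 2 ng turned to -0.16 (adjusted p = 0.478). The Grhl2 arrays of BC57 lay above those of urothelium at 50 ng and at 2 ng by gaps of 0.02 and 0.03, with changes of 0.10 and 0.26 and adjusted p of 0.416 and 0.0772. The direction of Grhl2 depended on the scaling: quantile normalization gave -0.20 and -0.03, and centring gave 0.20 and 0.38, the latter with an adjusted p of 0.0343. Ovol1 changed by -0.31 and -0.11.

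**Figure D2:**
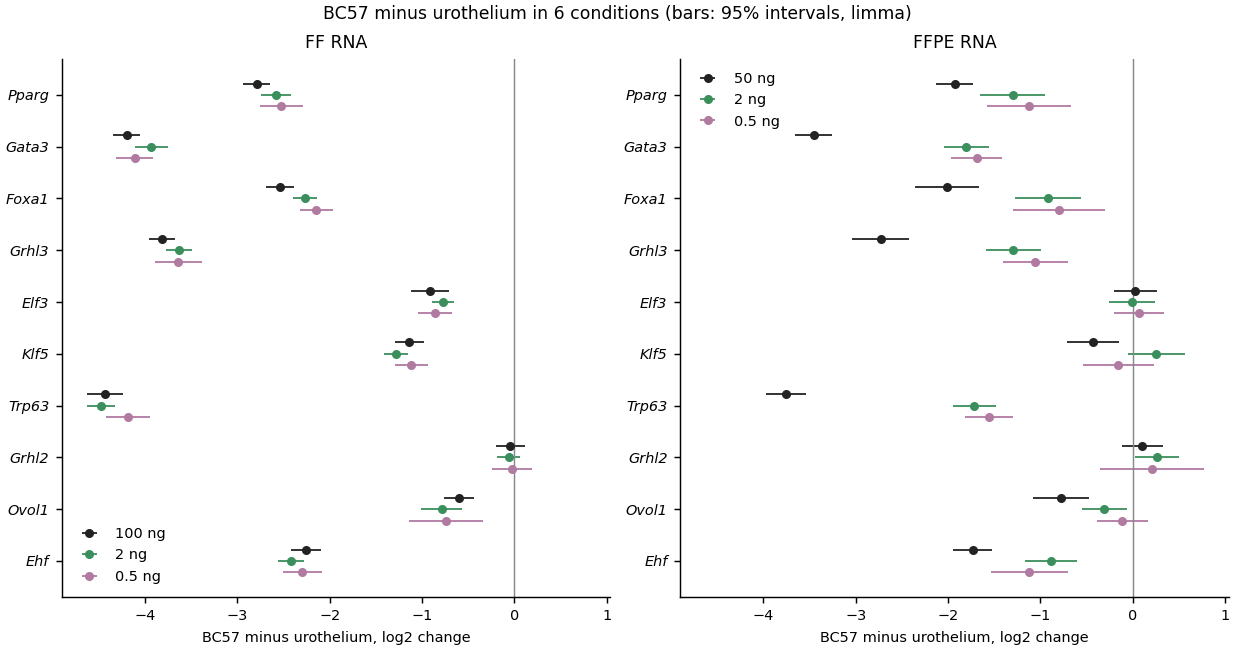
BC57 minus urothelium log2 change (horizontal axis) of each factor (vertical axis) in FF RNA (left) and FFPE RNA (right), by input; points are limma estimates and bars 95% intervals. The FF inputs lie close together, whereas in FFPE RNA at 2 ng and 0.5 ng Gata3 and Trp63 sit between -1.80 and -1.56, beside -4.20 and -4.43 in the reference.

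The smaller size of the changes in FFPE RNA was tested as the difference of the change from the reference, where a positive value means a smaller fall. At 50 ng, 1 of 10 was called, Grhl3 with 1.09 ± 0.14 (adjusted p = 0.00600; 0.876% of all probe sets called more positive), and it was under the threshold without BC57 FFPE array 1 (0.99) or urothelium FFPE array 2 (0.96). At 2 ng, 7 of 10 were called (3.76% more positive), led by Trp63 with 2.72 ± 0.14 (adjusted p = 1.50e-06), Grhl3 with 2.52 ± 0.18 and Gata3 with 2.40 ± 0.14. Foxa1 (1.61), Pparg (1.50), Klf5 (1.39) and Ehf (1.37) followed, and Elf3 (0.91), Grhl2 (0.31) and Ovol1 (0.29) were not called. At 0.5 ng, 6 of 10 were called (4.28% more positive): Trp63 (2.88), Grhl3 (2.76), Gata3 (2.51), Foxa1 (1.74), Pparg (1.67) and Ehf (1.14). The comparisons share the reference arrays. The FFPE WT Pico arrays also had the narrowest spread of values, and after quantile normalization over all arrays 5 were called at 2 ng and 3 at 0.5 ng, with Trp63 at 1.68 and 1.71, Grhl3 at 1.63 and 1.88 and Gata3 at 1.46 and 1.66. Foxa1 (1.07) and Klf5 (1.08) were the other 2 at 2 ng. The share of all probe sets called after quantile normalization was not counted. Pparg (0.75 and 0.88) and Ehf (0.66 and 0.39) were called at neither input in that setting, Foxa1 at 0.5 ng was not (1.28, adjusted p = 0.0963), and Grhl3 at 50 ng was not (0.62).

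Within each source, FFPE was compared with FF at the same kit and input. In urothelium, 7 of 10 factors were lower in FFPE RNA at 2 ng and 7 at 0.5 ng, where 10.3% and 10.2% of all probe sets were called lower. Grhl3 read 9.61, 9.58 and 9.71 in FF and 7.08, 7.48 and 7.22 in FFPE at 2 ng, a change of -2.37 ± 0.11 (adjusted p = 2.13e-09). Trp63 fell by 2.34 ± 0.08 (adjusted p = 3.64e-10) and Klf5 fell by 2.08 ± 0.11, from 9.65, 9.63 and 9.72 to 7.47, 7.87 and 7.40. No FFPE array of these 3 factors came within 1.5 of an FF array. Foxa1 fell by 1.85, Pparg fell by 1.83, Ehf fell by 1.36 and Gata3 fell by 1.29. Grhl2 (-0.66), Elf3 (-0.61) and Ovol1 (-0.41) passed the adjusted p but not the fold. After quantile normalization Elf3 turned to 0.25 (adjusted p = 0.0298) and Grhl2 to 0.04 (adjusted p = 0.741), so the direction of both depended on the scaling, while Ovol1 was -0.84. The same 7 were called at 0.5 ng, with changes from -2.56 for Grhl3 to -1.28 for Ehf.

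In BC57, 0 of 10 factors were called in FFPE against FF at either input, where 8.26% and 15.2% of all probe sets were called in either direction. An unadjusted p under 0.05, not counted over all probe sets, was passed by 6 and 5 factors. Pparg (-0.55 and -0.60), Foxa1 (-0.50 and -0.76), Klf5 (-0.55 and -0.70) and Grhl2 (-0.33 and -0.64) were lower in FFPE at 2 ng and 0.5 ng by the adjusted p. Of these, Pparg alone stayed past it after quantile normalization (-0.66 and -0.82): Foxa1 was -0.17 and -0.38, Klf5 0.02 and -0.01 and Grhl2 0.16 and -0.04, with adjusted p from 0.197 to 0.962. Elf3 changed by 0.16 and -0.03, and by 0.57 (adjusted p = 0.000443) and 0.46 (adjusted p = 0.00978) after quantile normalization. Gata3 was higher in FFPE: it read 6.47, 6.16 and 6.22 in FF and 7.18, 7.19 and 7.01 in FFPE at 2 ng (0.84 ± 0.10, adjusted p = 1.14e-05) and 6.17, 6.18 and 6.29 against 7.28, 7.16 and 7.16 at 0.5 ng (0.99 ± 0.10, adjusted p = 6.11e-06). All 6 FFPE arrays of Gata3 lay above all 6 FF arrays, and the BC57 arrays with SensationPlus, at 6.21 and 6.20, lay with the FF arrays. Trp63 in BC57 changed by 0.42 and 0.14, Grhl3 by -0.03 and 0.02 and Ehf by 0.17 and -0.10.

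Over all probe sets the median change was also above 0 in FFPE, by 0.39 and 0.47 in urothelium and by 0.28 and 0.39 in BC57 at 2 ng and 0.5 ng. With each array centred on its median, Trp63 in urothelium changed by -2.73 and -2.89 and Gata3 in BC57 by 0.55 and 0.60, while Trp63 in BC57 changed by 0.13 and -0.25. After quantile normalization it was 0.01 and -0.43 (adjusted p = 0.0208 for the latter). Centred, 8 and 9 of 10 factors were called in urothelium and 0 and 3 in BC57, the latter Foxa1 (-1.15), Klf5 (-1.08) and Grhl2 (-1.02). Shares of all probe sets called were not counted after centring or quantile normalization. After quantile normalization the urothelium counts were 4 and 5, and Gata3 (-0.17 and -0.32) and Ehf (-0.41 and -0.40) fell out of them at both inputs, Foxa1 at 2 ng (-0.82) and Klf5 at 0.5 ng (-0.74), while Ovol1 was called at 0.5 ng (-1.05) and Gata3 was called higher in BC57 (1.0 and 1.24).

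The FFPE minus FF change differed between the sources by a direct test. At 2 ng, 7 of 10 factors had a more positive FFPE minus FF change in BC57 than in urothelium (4.31% of all probe sets): Trp63 by 2.76 ± 0.12 (adjusted p = 1.24e-08), Grhl3 by 2.34 ± 0.15, Gata3 by 2.13 ± 0.14, Klf5 by 1.54, Ehf by 1.53, Foxa1 by 1.34 and Pparg by 1.28. At 0.5 ng it was 6 (4.07%): Trp63 by 2.63, Grhl3 by 2.59, Gata3 by 2.42, Pparg by 1.40, Foxa1 by 1.35 and Ehf by 1.18. Grhl2 differed by 0.33 and 0.23 and was called at neither input. After quantile normalization the counts were 4 and 3, and Trp63 (1.71 and 1.55), Grhl3 (1.40 and 1.72) and Gata3 (1.18 and 1.56) were called in both, with Klf5 (1.15) at 2 ng. Foxa1 (0.65 and 0.84), Pparg (0.50 and 0.63) and Ehf (0.73 and 0.41) were then called at neither input. The share of all probe sets called in that setting was not counted. In BC57, Trp63 and Grhl3 were already low in FF RNA, near the 38th and 61st percentile of their arrays at 2 ng, and the part of that in the difference was not tested.

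With SensationPlus at 50 ng against WT Plus at 100 ng, a contrast of fixation, kit and input together, 3 of 10 factors were lower in FFPE urothelium (4.41% of all probe sets called lower): Elf3 fell by 1.39 ± 0.09, Pparg fell by 1.27 ± 0.06 and Grhl3 fell by 1.22 ± 0.10. Elf3 read 9.03 and 9.19 in FF and 7.79 and 7.66 in FFPE. Gata3 and Foxa1 (both -0.98) were just short of the fold threshold, and Trp63 changed by -0.64. The median of all probe sets was higher by 0.14; centred, 5 were called, with Gata3 and Foxa1 at -1.09, and after quantile normalization 0 were, with Elf3 at -0.96. In BC57, 0 of 10 were called (4.71% of all probe sets called), while 6 passed an unadjusted p under 0.05. The widest changes were those of Foxa1 (-0.46) and Elf3 (-0.45). Shares of all probe sets were not counted after centring, after quantile normalization or for the unadjusted p.

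**Figure D3:**
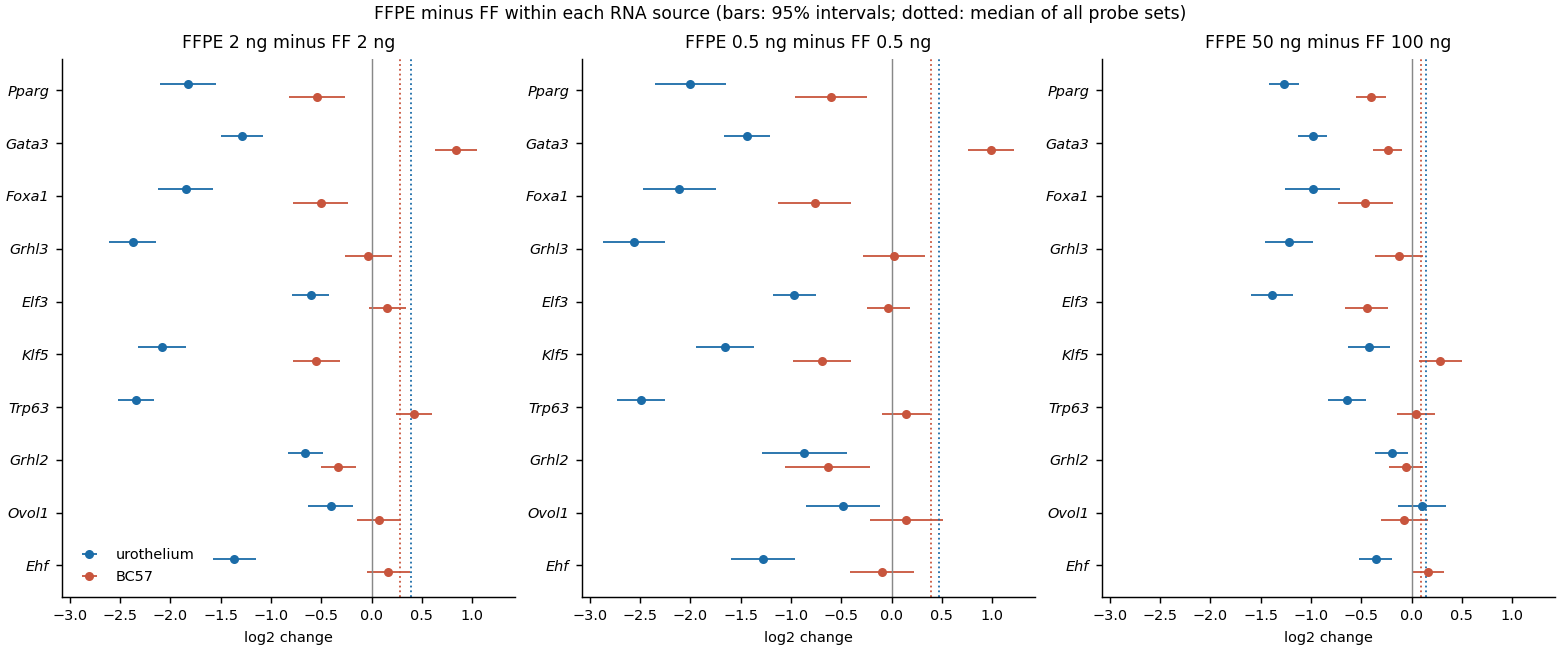
FFPE minus FF log2 change (horizontal axis) of each factor (vertical axis) at 2 ng, at 0.5 ng and for 50 ng against 100 ng, urothelium in blue and BC57 in red; bars are 95% intervals and dotted lines the median over all probe sets. At 2 ng urothelium lies between -2.37 and -0.41 for the 10 factors, and BC57 between -0.55 and 0.84.

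In FF RNA, some factors read at different levels with WT Pico at 2 ng or 0.5 ng than with WT Plus at 100 ng, a contrast of kit and input together. Foxa1 was the factor called: in urothelium it read 11.14 and 11.11 with WT Plus at 100 ng and 9.59, 9.74 and 9.67 with WT Pico at 2 ng, a change of -1.46 ± 0.06 (adjusted p = 1.51e-08; 2.12% of all probe sets called lower). In BC57 it read 8.62 and 8.56 against 7.39, 7.38 and 7.43, a change of -1.19 ± 0.06 (adjusted p = 6.73e-08; 2.11% called lower). At 0.5 ng the changes were -1.51 and -1.12 (2.44% and 2.22% called lower), the latter -0.96 and not called after quantile normalization. Of all probe sets, 0.607% were at least as far below 0 as Foxa1 in urothelium at 2 ng and 1.27% in BC57. Elf3 was lower with WT Pico by the adjusted p in all 4 comparisons (urothelium and BC57 at 2 ng, -0.97 and -0.82, then at 0.5 ng, -0.96 and -0.90) and passed the fold in urothelium only without WT Plus array 1 (-1.05 at 2 ng and -1.04 at 0.5 ng). Klf5 was lower in all 4 by the adjusted p as well (in the same order -0.48, -0.62, -0.86 and -0.84). Trp63 changed by 0.07 and 0.03 at 2 ng, Grhl2 by 0.03 and 0.01, and Ehf by 0.35 and 0.19. In urothelium the group means with WT Plus and with WT Pico at 2 ng were 10.64 and 10.22 for Gata3. They were 9.90 and 9.63 for Grhl3, 9.05 and 8.81 for Pparg and 5.84 and 5.73 for Ovol1. At 2 ng, 7 of 10 factors passed the adjusted p in urothelium and 5 in BC57, in either direction. The share of all probe sets past it was not counted.

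In FFPE RNA, WT Pico was compared with SensationPlus. In urothelium 4 of 10 factors were lower at 2 ng (4.42% of all probe sets called lower) and 5 at 0.5 ng (5.25%). Foxa1 read 10.26 and 10.03 with SensationPlus and 7.61, 8.14 and 7.71 with WT Pico at 2 ng, a change of -2.32 ± 0.17 (adjusted p = 6.73e-06). Klf5 fell by 2.14 ± 0.14, Trp63 fell by 1.63 ± 0.10 and Grhl3 fell by 1.42 ± 0.15. At 0.5 ng Foxa1 fell by 2.64, Klf5 fell by 2.10, Trp63 fell by 1.78, Grhl3 fell by 1.60 and Pparg fell by 1.01. In BC57 Foxa1 and Klf5 alone of the 10 were called, with changes of -1.23 and -1.46 at 2 ng (4.62% called lower) and -1.42 and -1.82 at 0.5 ng (6.46%). Both were under the threshold at 2 ng after quantile normalization (-0.90 and -0.89), as was Pparg in urothelium at 0.5 ng (-0.85). Klf5 in BC57 read 9.40 and 9.19 with SensationPlus and 7.74, 7.86 and 7.91 with WT Pico at 2 ng. Gata3 in BC57 was higher with WT Pico by 0.921 ± 0.10 and 0.997 ± 0.11, both under the threshold, and was called after quantile normalization (1.06 and 1.25). Kit and input differ together in each of these comparisons and cannot be told apart.

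**Figure D4:**
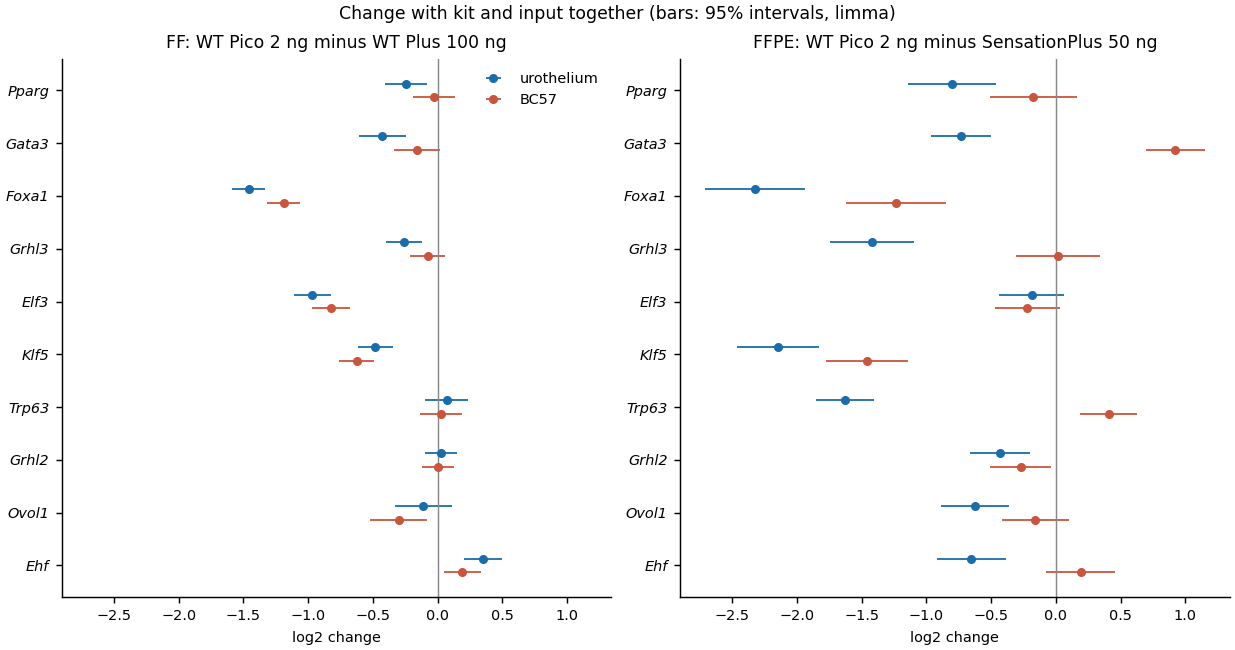
Log2 change (horizontal axis) of each factor (vertical axis) with WT Pico at 2 ng, against WT Plus at 100 ng in FF RNA (left) and against SensationPlus at 50 ng in FFPE RNA (right), urothelium in blue and BC57 in red; bars are 95% intervals. Foxa1 lies between -2.32 and -1.19 in all 4 comparisons, and Klf5 between -2.14 and -0.48.

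Input alone, 0.5 ng against 2 ng with WT Pico, gave 0 of 10 factors called in each of the 4 pairs of groups. Of all probe sets, 0.0188% were called in FF urothelium, 0.00471% in FF BC57, 0% in FFPE urothelium and 0.0188% in FFPE BC57. In the same order, 1, 2, 1 and 2 factors passed an unadjusted p under 0.05, which was not counted over all probe sets. Klf5 in FF urothelium was the one factor past the adjusted p, with 9.65, 9.63 and 9.72 at 2 ng and 9.38, 9.30 and 9.19 at 0.5 ng (-0.38, 95% interval -0.52 to -0.24, adjusted p = 0.0369). It no longer passed after centring (-0.38, adjusted p = 0.12) or quantile normalization (-0.30, adjusted p = 0.118). The spread between arrays was compared without a test, as the root mean square of the group SDs with each group weighted alike. It was nearly equal in FF and FFPE RNA for Trp63 (0.10 in both) and Gata3 (0.09 and 0.10). For 7 factors it was at least 1.77 times as wide in FFPE RNA, and for Ovol1 it was narrower there. This spread was 0.05 in FF and 0.25 in FFPE RNA for Foxa1, 0.09 and 0.21 for Pparg, and 0.19 and 0.14 for Ovol1. The widest group was Grhl2 in BC57 FFPE RNA at 0.5 ng, at 7.22, 6.83 and 7.79.

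Set in order over the 12 groups, Gata3 was highest in FF urothelium at 100 ng (10.64 ± 0.05, SD, n = 2), followed by 0.5 ng (10.33 ± 0.11) and 2 ng (10.22 ± 0.05), whose arrays overlapped, then FFPE urothelium at 50 ng (9.66 ± 0.01), 2 ng (8.93 ± 0.14) and 0.5 ng (8.89 ± 0.17), the last pair overlapping. The BC57 groups followed, FFPE with WT Pico at 7.20 ± 0.07 and 7.12 ± 0.10 above the other 4, which lay between 6.20 and 6.44. Foxa1 did not keep this order: FF BC57 at 100 ng (8.59 ± 0.04, n = 2) lay above FFPE urothelium at 2 ng (7.82 ± 0.29, n = 3) and 0.5 ng (7.51 ± 0.38), and FFPE urothelium at 0.5 ng overlapped FF BC57 at 0.5 ng (7.47 ± 0.05). Klf5 in FFPE urothelium with WT Pico (7.58 ± 0.26 and 7.63 ± 0.23) lay below every FF BC57 group (8.17 to 9.01). Elf3 was lowest in FFPE urothelium at 0.5 ng (7.19 ± 0.15), whose arrays overlapped those of FFPE BC57 at 0.5 ng (7.26 ± 0.09). Over the 12 groups Grhl2 spanned 0.87 and Ovol1 1.0, beside 4.51 for Trp63.

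Over the 24 WT Pico arrays, whose groups are balanced, the sum of squares of each factor was divided among RNA source, preservation, input, their interactions and replicates. RNA source took 85.7% for Gata3, 74.7% for Trp63, 74.5% for Ehf, 64.9% for Grhl3, 62.6% for Pparg, 53.7% for Ovol1, 50.5% for Foxa1, 28.6% for Elf3, 13.6% for Klf5 and 1.67% for Grhl2, beside a median of 7.63% over all probe sets. Preservation took 70.7% for Grhl2 and 64.2% for Klf5, beside a median of 59.7%, and 0.515% for Gata3. The FFPE minus FF changes of Gata3 had opposite signs in the sources. They were -1.29 and -1.43 in urothelium and 0.84 and 0.99 in BC57, at 2 ng and 0.5 ng. The interaction of source and preservation took 33.4% for Elf3 and from 3.57% to 17.4% for the others (13.4% for Gata3), beside a median of 3.44%. Replicates took 21.4% for Ovol1 and 20.3% for Grhl2 and under 5% for the other 8.

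**Figure D5:**
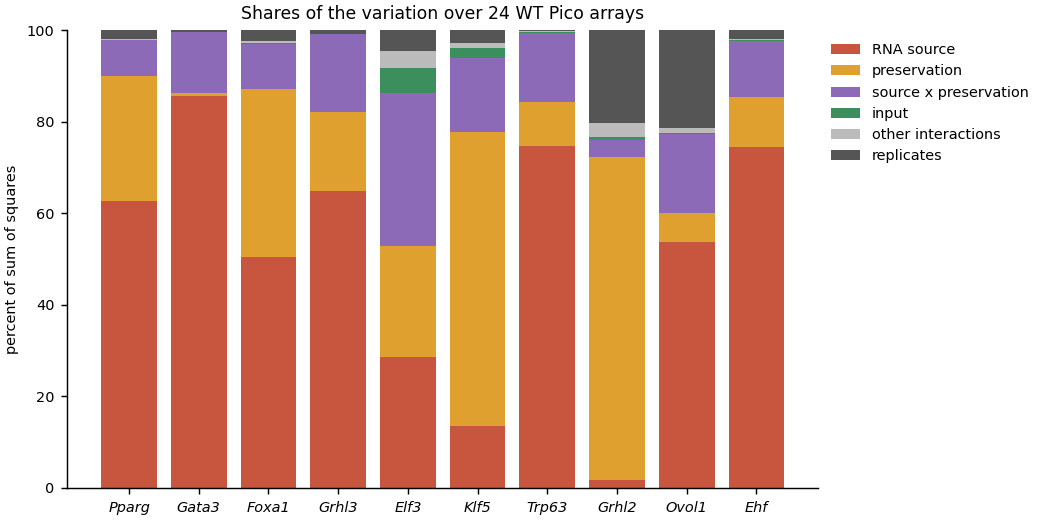
Percent of the sum of squares over 24 WT Pico arrays (vertical axis) taken by RNA source, preservation, their interaction, input, other interactions and replicates, for each factor (horizontal axis). RNA source takes 85.7% for Gata3 and 1.67% for Grhl2.

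Across the 12 group means, a description over groups that share their RNA and their arrays, Trp63 was most like Ehf among the 10 (Pearson r = 0.993), Grhl3 most like Trp63 (0.988), Pparg most like Grhl3 (0.987), Gata3 most like Trp63 (0.979), Ovol1 most like Grhl3 (0.928), Foxa1 most like Ovol1 (0.921) and Klf5 most like Foxa1 (0.910). Elf3 was most like Foxa1 (0.855) and Grhl2 most like Klf5 (0.738). Other probe sets were more like each factor than any of the 10 was. Likeness was ranked among 6922 probe sets whose group means had an SD of at least 0.5. There Trp63 had rank 8 for Ehf, rank 43 for Grhl3 and rank 178 for Gata3. Ehf had rank 22 for Trp63, and Klf5 had rank 1075 of 6923 for Grhl2. Over the 6 urothelium groups, Pparg and Gata3 had r = 0.992, and over the 6 BC57 groups r = -0.790. The probe sets most like each factor over all probe sets carry no gene name here.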

How the data were processed

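Per the submitters' processing notes, the deposited log2 values were made by the authors with RMA (background correction, normalization between arrays and summary of probes) in the affy package. The sources used here do not give versions, the array design, the build of the probe annotation or whether all arrays were normalized together. The values were used as deposited. Each comparison was fitted on all 21237 probe sets with limma 3.58.1 in R 4.3.3 (lmFit, then eBayes with its trend option, 2-sided tests), and p-values were adjusted by Benjamini-Hochberg over the whole table. The BC57 minus urothelium fits used the groups of 1 condition and the others the 4 groups of the 2 conditions compared, 31 comparisons in all. Precision is limited by how many arrays each group has. The fit was tested on simulated data. All 10 factors were tested in every comparison, but the text does not give the value of each factor in each of them. The members and lists were chosen with earlier results of these data known. The reference genes at hand gave names to 0 probe sets, so 6 lists of related genes, cell type markers and the names of the most alike probe sets were not analysed here. Alternatives were centring on array medians, quantile normalization, no trend, 1 fit over all 32 arrays, the probe sets above the median brightness, a replicate block and leaving out each array. Shares of all probe sets called belong to the main fit on the deposited values. None was counted under an alternative or for a p-value alone.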

Additional observations from a re-analysis of the deposited data

Results flagged for a closer look

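These values are differences between groups in the size of a change, each past the threshold in a direct test of that difference, and no cause was tested for any of them. Trp63, Grhl3, Gata3, Foxa1, Pparg and Ehf appear at 2 ng and at 0.5 ng in both kinds of difference. After quantile normalization Trp63, Grhl3 and Gata3 stayed past the threshold in these 4 tests, Foxa1 in 1 of them (1.07, FFPE 2 ng against the reference) and Pparg (0.50 to 0.88) and Ehf (0.39 to 0.73) in none, while Klf5 stayed past it in both tests at 2 ng (1.08 and 1.15) and Grhl3 at FFPE 50 ng did not (0.62).

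The BC57 minus urothelium change was more positive in FFPE than in the FF 100 ng reference. At FFPE 50 ng this held for Grhl3 (1.09). At FFPE 2 ng it held for Trp63 (2.72), Grhl3 (2.52), Gata3 (2.40), Foxa1 (1.61), Pparg (1.50), Klf5 (1.39) and Ehf (1.37). At FFPE 0.5 ng it held for Trp63 (2.88), Grhl3 (2.76), Gata3 (2.51), Foxa1 (1.74), Pparg (1.67) and Ehf (1.14).

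The FFPE minus FF change was more positive in BC57 than in urothelium at equal kit and input. At 2 ng this held for Trp63 (2.76), Grhl3 (2.34), Gata3 (2.13), Klf5 (1.54), Ehf (1.53), Foxa1 (1.34) and Pparg (1.28). At 0.5 ng it held for Trp63 (2.63), Grhl3 (2.59), Gata3 (2.42), Pparg (1.40), Foxa1 (1.35) and Ehf (1.18). Both kinds of difference use the same FFPE arrays.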

How the results depend on the processing

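Of the called values of single factors, 0 changed sign. Of all 310, with small uncalled values included, 36 changed sign after quantile normalization, 23 after centring and 3 with the replicate block, as did 85 of 2960 with single arrays left out. In 11 of the 36 the value passed the adjusted p before or after, in 1 of them both: Elf3 in FFPE minus FF at 2 ng in urothelium turned to 0.25, where Grhl2 turned to 0.039. In BC57 at 2 ng Klf5 turned to 0.022, Grhl2 to 0.16 and Ovol1 to -0.33, and at 0.5 ng Elf3 turned to 0.46 and Trp63 to -0.43. Elf3 in BC57 minus urothelium at FFPE 50 ng turned to -0.28, Grhl2 and Ehf in FFPE 50 ng minus FF 100 ng in urothelium to 0.11 and 0.0033, and Trp63 in FFPE 0.5 ng minus FFPE 50 ng in BC57 to -0.035. Without the intensity trend and in 1 fit over all 32 arrays, all 310 values kept their side of the threshold, and among the probe sets above the median brightness all 279 did (Ovol1 is below it). Centring on array medians left 299 of 310, quantile normalization 276 and leaving out single arrays 2922 of 2960. The number of factors called moved by over 1.5 times in the following cases. After quantile normalization it was 0 for the FFPE 50 ng difference from the reference, 3 for that at FFPE 0.5 ng, 4 for FFPE minus FF at 2 ng in urothelium, 1 in BC57 and 4 for their difference, 1 for FFPE minus FF at 0.5 ng in BC57 and 3 for the difference between sources, 0 for FFPE 50 ng minus FF 100 ng in urothelium, 0 for FF 0.5 ng minus FF 100 ng in BC57 and 1 for FFPE 2 ng minus FFPE 50 ng in BC57. After centring it was 3 for FFPE minus FF at 0.5 ng in BC57 and 5 for FFPE 50 ng minus FF 100 ng in urothelium. With single arrays left out it ran from 3 to 5 for BC57 minus urothelium at FFPE 0.5 ng, from 0 to 2 for the FFPE 50 ng difference, from 0 to 1 for FFPE minus FF at 0.5 ng in BC57, and from 1 to 2 for FF 2 ng and FF 0.5 ng minus FF 100 ng in urothelium. The cause was not tested. The replicate number did not pair the arrays: 0 of 12 comparisons with 3 pairs had all correlations above 0.1, and 3 of 12 with 2 pairs did. As a replicate block it moved 2 of 310 values across the threshold, Gata3 in FFPE 0.5 ng minus FFPE 50 ng BC57 (1.05) and Pparg in the same contrast of urothelium (-0.94).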
